A study of Mus musculus with 25 samples.

Results

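The comparison was between livers of p53KO and Rosa26KO mice that had both been fed a high-fat diet (HFD), with every difference given as p53KO over Rosa26KO. All mice were male, of the strain C57BL6/J and 24 months old. Of the 25 liver libraries of the series, 13 entered the comparison: 7 of the group HFD_p53KO and 6 of HFD_Rosa26KO. The other 12 libraries, 6 of Control_p53KO and 6 of Control_Rosa26KO, came from mice of the same strain, sex and age on a control diet. They shared the estimate of the spread and were otherwise used only to set the difference on HFD beside that on control diet. Polyadenylated RNA of whole flash-frozen liver was read in pairs of 75 bases. The labels name the genotypes and the diet, but no source used here says how the p53 and Rosa26 knockouts were made or in which cells they acted, nor what the diet held and how long it was fed. Of 24537 genes in the table, 14133 passed the filter on low counts and were tested. Levels are given as CPM, the usual counts of a gene relative to the depth of its library, scaled by TMM, and differences as log2 fold changes.

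p53, encoded by Trp53, is a transcription factor that is held at low levels by the ubiquitin ligase Mdm2 and accumulates after DNA damage and other stress. It then induces genes that stop the cell cycle, such as Cdkn1a, that promote cell death, such as Bax, and that feed back on p53 itself, such as Mdm2. In liver it is also known for effects on lipid and glucose metabolism. Rosa26 is a locus widely used as a neutral target for genetic changes.

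The HFD libraries held between 16324283 and 21501281 counts. Albumin (Alb), the major protein secreted by hepatocytes, lay between 36511 and 128870 CPM over the 13 libraries, as a liver label requires. A few libraries stood apart, and results that rest on them are given with and without them. HFD_p53KO replicate 7 was lowest of all 13 in markers of endothelial cells, stellate cells and matrix and highest in male-biased genes. HFD_p53KO replicate 5 was low in cell cycle, p53 target and macrophage genes. HFD_Rosa26KO replicate 6 was highest in neutrophil and platelet genes, and HFD_Rosa26KO replicates 1 and 6 were highest in erythroid genes. HFD_p53KO replicate 2 was highest in acute phase genes. The labels do not say that the libraries came from separate animals, so p-values measure the spread between these samples.

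Trp53 mRNA (chromosome 11, 69580359 to 69591873) was lower in the livers labelled p53KO, but it was not lost. In HFD_Rosa26KO its level ran from 30.6 to 43.8 CPM with a median of 37.2, and in HFD_p53KO from 19.6 to 31.0 CPM with a median of 26.1. Only HFD_p53KO replicate 7, the highest of its group, lay inside the range of the Rosa26KO livers, so that the groups overlapped in 1 library. The difference of means was -11.1 CPM, with p = 0.00117 in a two-sided exact permutation test over all 1716 ways to divide the livers into groups of 7 and 6; the smallest p this test can give is 0.000583. The log2 fold change was -0.51 with an SE of 0.14, and edgeR's quasi-likelihood test gave an unadjusted p of 0.00156 and an adjusted p of 0.9998 over all tested genes. With any 1 library left out, the exact permutation p lay between 0.00126 and 0.00631. Which exon a deletion would remove is not given in the sources used here, so the remaining counts cannot be divided into intact and altered transcript, nor by cell type.

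Across all genes, edgeR's quasi-likelihood test called none of the 14133 at an adjusted p under 0.05, and the smallest adjusted p was 0.9998. At an unadjusted p under 0.05 there were 509 genes, or 3.6% of those tested, of which 244 (1.73%) had a higher and 265 (1.88%) a lower level in p53KO. DESeq2 called 1 gene (0.00709%), the platelet chemokine Ppbp, a marker of platelets, and had 558 genes (3.96%) at an unadjusted p under 0.05. limma voom with sample quality weights called none and had 1171 (8.29%). The median log2 fold change over all tested genes was 0.01, with 7467 genes (52.8%) above 0. No gene named in what follows passed the adjusted threshold in edgeR, so each value is a description of these 13 livers, and its unadjusted p ranks it among 14133 tests.

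Listed targets of p53 lay on both sides of 0. Of 56 tested genes on a list of p53 targets, 23 had a log2 fold change above 0 and 33 below, against 52.8% above 0 for all genes, the median was -0.06, and none reached an unadjusted p under 0.05, while without p53KO replicate 7 there were 2 higher and 3 lower, against 1.66% and 1.85% of all genes. Cdkn1a, the cell cycle inhibitor p21 (chromosome 17, 29090976 to 29100727), ran from 30.0 to 93.2 CPM in Rosa26KO with a median of 53.03 and from 7.52 to 89.7 CPM in p53KO with a median of 37.1. Its groups overlapped widely, with 2 of 7 p53KO livers below every Rosa26KO liver, and its log2 fold change was -0.38 (SE 0.50, unadjusted edgeR p of 0.452). Mdm2 (chromosome 10, 117688875 to 117710758) lay between 30.9 and 43.1 CPM in Rosa26KO and between 32.2 and 42.7 CPM in p53KO. Every p53KO liver was inside the Rosa26KO range for Mdm2, and the log2 fold change was -0.02 (SE 0.08). The target genes of smallest p pointed both ways. Btg2, an antiproliferative cofactor, was at -0.87 (SE 0.44), Eda2r, a death receptor of the TNF receptor family, at -0.76 (SE 0.40), and Bax at -0.25 (SE 0.13) on the log2 scale, with unadjusted edgeR p of 0.0575, 0.068 and 0.0641. Abhd4, a lipase, was at 0.23 (SE 0.11, unadjusted edgeR p of 0.0533) and Tap1, a peptide transporter of antigen presentation, at 0.32 (SE 0.16, unadjusted edgeR p of 0.0661). Tap1 is also on the list of genes induced by interferon gamma. Gdf15, a stress-induced hormone, was at -0.53 (SE 0.33), with 5 of 7 p53KO livers below the Rosa26KO range.

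The livers were not alike in their p53 targets. The mean log2 CPM of the 56 targets, relative to its mean over the 13 libraries, lay between -0.02 and 0.19 in the Rosa26KO livers. In p53KO it was 0.24, 0.03, 0.06 and 0.12 in replicates 1 to 4, and -0.49, -0.30 and -0.23 in replicates 5, 6 and 7. The library names form 3 consecutive runs, which hold replicates 1 and 2, replicates 3 and 4, and replicates 5 and above of every group. The difference between genotypes in this score was -0.05 in the first run, 0.03 in the second and -0.39 in the third. Whether the runs were handled apart is not stated, and the replicates of a group have no order of their own.

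Among 22 tested regulators and partners of p53, the median log2 fold change was 0.02, with 11 above and 11 below 0. Usp10, a deubiquitinase that stabilises p53 (chromosome 8, 119910360 to 119957560), had the smallest p after Trp53. Its level ran from 65.5 to 93.2 CPM in Rosa26KO with a median of 82.8 and from 86.4 to 111.8 CPM in p53KO with a median of 96.2. Usp10 was above the Rosa26KO range in 5 of 7 p53KO livers, with a log2 fold change of 0.27 (SE 0.10, unadjusted edgeR p of 0.00918). On control diet its log2 fold change was -0.30, and the difference between the diets had an unadjusted edgeR p of 0.000383. Ppm1d, the phosphatase Wip1 that switches off the damage response, was at -0.20 (SE 0.11), with 5 of 7 p53KO livers below the Rosa26KO range.

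**Figure D1:**
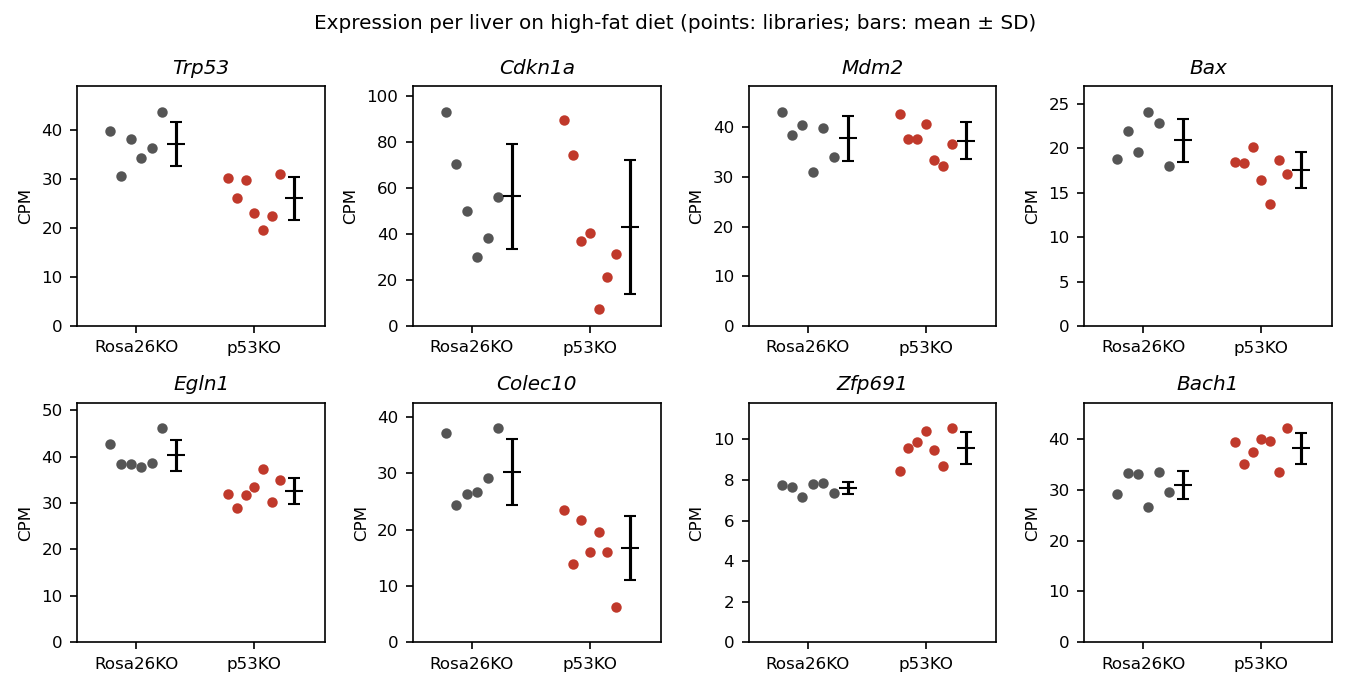
Levels in CPM of 8 genes in the 13 HFD livers, with grey points for HFD_Rosa26KO, red points for HFD_p53KO and bars for mean ± SD. Trp53 was lower in p53KO with an overlap of 1 library, Cdkn1a and Mdm2 overlapped widely, and the groups did not overlap for Egln1, Colec10 and Zfp691.

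Interferon-stimulated genes leaned to higher levels in p53KO. These genes are switched on when interferon-activated factors bind the interferon-stimulated response element (ISRE) in their promoters, and they encode antiviral proteins. Of 55 tested members, 53 had a log2 fold change above 0 (52.8% of all genes did), and the median was 0.30. At an unadjusted p under 0.05 there were 3 higher and none lower, against 1.73% and 1.88% of all genes. Of the 3, Trim12a, a member of the TRIM family of antiviral proteins (chromosome 7, 104299894 to 104315466), ran from 15.2 to 23.8 CPM in Rosa26KO with a median of 19.6 and from 18.6 to 37.9 CPM in p53KO with a median of 27.7. Dtx3l, a ubiquitin ligase whose exons overlap those of Parp9 on the other strand, ran from 77.0 to 97.7 CPM and from 85.0 to 129.6 CPM. For Trim12a, Dtx3l and Ifi35, another interferon-induced protein, 5 of 7 p53KO livers lay above the Rosa26KO range, with log2 fold changes of 0.52 (SE 0.22), 0.28 (SE 0.12) and 0.32 (SE 0.14) and unadjusted edgeR p of 0.0276, 0.0308 and 0.0334.

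A further 4 members were chosen after their values were seen. Oasl2, an oligoadenylate synthetase-like protein, had a median of 103.2 CPM in Rosa26KO and 256.4 CPM in p53KO and a log2 fold change of 0.82 (SE 0.53). Ifit3, which binds with its relatives to foreign RNA, had medians of 120.8 and 203.8 CPM and a log2 fold change of 0.67 (SE 0.51). It has a near-identical copy, Ifit3b, so its counts may be shared. Isg15, a ubiquitin-like modifier, had medians of 63.1 and 105.4 CPM and a log2 fold change of 0.55 (SE 0.43). Bst2, which tethers budding virus particles to the cell, had medians of 202.2 and 289.2 CPM and a log2 fold change of 0.36 (SE 0.23). For Isg15 and Bst2, 5 of 7 p53KO livers lay above the Rosa26KO range, and for Ifit3 3 lay above it and 1 below.

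Promoter windows of 4 of these genes are shown because the motif their regulators bind is written in them. The windows, from RefSeq on GRCm38.p6, run from 250 bases before to 50 bases after the annotated start, 5′ to 3′ on the strand of the gene. Capitals mark matches to the ISRE core (GAAA, any 2 bases, GAAA) or, where the match is on the other strand, its reverse complement (TTTC, any 2 bases, TTTC). They lie at chr4:156200769-156201068 on the minus strand for Isg15, with 3 matches, at chr19:34583279-34583578 on the plus strand for Ifit3, with 2, at chr7:104315446-104315745 on the minus strand for Trim12a, with 1, and at chr8:71537423-71537722 on the minus strand for Bst2, with 2.
Isg15: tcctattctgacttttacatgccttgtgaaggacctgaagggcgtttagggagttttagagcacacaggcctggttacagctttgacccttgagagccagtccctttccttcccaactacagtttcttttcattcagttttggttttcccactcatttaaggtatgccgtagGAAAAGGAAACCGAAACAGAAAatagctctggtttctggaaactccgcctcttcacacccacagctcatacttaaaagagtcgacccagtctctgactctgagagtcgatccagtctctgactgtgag
Ifit3: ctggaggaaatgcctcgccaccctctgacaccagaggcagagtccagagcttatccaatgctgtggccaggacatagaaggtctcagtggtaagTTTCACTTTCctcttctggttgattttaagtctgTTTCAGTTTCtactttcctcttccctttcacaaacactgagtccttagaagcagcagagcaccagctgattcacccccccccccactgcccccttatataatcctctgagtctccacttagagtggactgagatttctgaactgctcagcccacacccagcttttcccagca
Trim12a: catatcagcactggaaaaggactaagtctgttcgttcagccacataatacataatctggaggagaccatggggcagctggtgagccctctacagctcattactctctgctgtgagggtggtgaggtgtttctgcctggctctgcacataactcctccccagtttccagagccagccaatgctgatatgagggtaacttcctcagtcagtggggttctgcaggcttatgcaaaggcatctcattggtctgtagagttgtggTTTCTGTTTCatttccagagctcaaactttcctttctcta
Bst2: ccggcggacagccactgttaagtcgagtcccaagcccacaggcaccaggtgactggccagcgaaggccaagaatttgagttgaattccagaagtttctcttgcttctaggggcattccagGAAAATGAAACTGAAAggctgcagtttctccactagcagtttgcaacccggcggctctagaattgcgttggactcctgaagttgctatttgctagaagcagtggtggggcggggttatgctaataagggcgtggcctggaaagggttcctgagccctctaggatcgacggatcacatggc
Of the 39 listed interferon genes with a window, 20 (51.3%) held the core on either strand. It was held by 437 (4.03%) of the 10845 tested genes with a window, and by 1131 (3.44%) of all 32851 windows. Matches that overlap are written as 1 run of capitals. A match is a string of letters and was not tested for binding.

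The interferon genes were not evenly high among the p53KO livers. Their score, the mean log2 CPM relative to the mean of the 13 libraries, was 0.41, 0.53, 0.52 and 0.44 in p53KO replicates 1 to 4, -0.01 in replicate 6, and -0.53 and -0.58 in replicates 5 and 7. In the Rosa26KO livers it lay between -0.52 and 0.24. Replicates 5 and 7 therefore held the lowest scores of all 13 livers, while 4 other p53KO livers held the highest. Without replicates 5 and 7 the median log2 fold change of the list was 0.47, with all 55 members above 0 and 6 higher at an unadjusted p under 0.05, against 2.1% of all genes. Without Rosa26KO replicate 6 the median was 0.26 with 50 members above 0, and none was higher at an unadjusted p under 0.05, against 1.23% of all genes. The difference of scores was 0.56 in the first run of library names, 0.62 in the second and -0.21 in the third. Of 31 tested genes induced by interferon gamma, 27 lay above 0 with a median of 0.21, and none reached an unadjusted p under 0.05. On control diet the median of the interferon-stimulated list was -0.05 and that of the interferon gamma list 0.34. The interaction, which tests the difference between diets, had an unadjusted edgeR p under 0.05 for 3 of the 55 and 1 of the 31 members, against 8.64% of all genes.

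In 21 genes the 7 p53KO and 6 Rosa26KO livers did not overlap, 11 (0.0778% of tested genes) with all p53KO livers higher and 10 (0.0708%) with all lower. Zfp691, a zinc finger protein (chromosome 4, 119169513 to 119174195), had the smallest p of the genes that were higher. Its level ran from 7.16 to 7.86 CPM in Rosa26KO with a median of 7.71 and from 8.47 to 10.6 CPM in p53KO with a median of 9.56. The log2 fold change was 0.33 (SE 0.08, unadjusted edgeR p of 0.0003), and it lay between 0.31 and 0.36 with any 1 library left out. The others of smallest p that were higher without overlap were Zfp777, also a zinc finger protein, Tti1, a cochaperone of the kinases ATM, ATR and mTOR, Vezt, which belongs to adherens junctions, and Fam214b. Their log2 fold changes were 0.26, 0.26, 0.23 and 0.26. The differences of these 5 genes were small, and so was the spread within their groups.

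Egln1 encodes the prolyl hydroxylase PHD2, which marks the hypoxia-inducible factor HIF for destruction (chromosome 8, 124908587 to 124949324). It ran from 37.8 to 46.1 CPM in Rosa26KO with a median of 38.5 and from 29.0 to 37.3 CPM in p53KO with a median of 31.9. The groups did not overlap, and the log2 fold change was -0.30 (SE 0.08, unadjusted edgeR p of 0.000662), between -0.34 and -0.27 with any 1 library left out. The other genes of smallest p that were lower without overlap were Colec10, a lectin made by stellate cells, Ttyh1, Arg2, the mitochondrial arginase, and E2f5, an E2F factor that represses cell cycle genes. Their log2 fold changes were -0.85, -1.04, -0.88 and -0.26. Ttyh1 and Arg2 had medians below 1 CPM in both groups, and exons of Ttyh1, Arg2 and E2f5 overlap those of genes on the other strand.

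Egln1 is itself a target of HIF, and other HIF targets also lay lower in p53KO. Of 24 tested hypoxia genes, 20 had a log2 fold change below 0 (47.2% of all genes did), and the median was -0.19. At an unadjusted p under 0.05, 4 were lower and none higher, against 1.88% and 1.73% of all genes. The list and the 4 include Egln1 itself. Ankrd37, a small ankyrin repeat protein (chromosome 8, 45996902 to 46005707), ran from 0.795 to 5.12 CPM in Rosa26KO and from 0.312 to 1.22 CPM in p53KO. Its log2 fold change was -1.55 (SE 0.43, unadjusted edgeR p of 0.00134), with 4 of 7 p53KO livers below the Rosa26KO range, and its exons overlap Lrp2bp and Ufsp2 on the other strand. Egln3, the related hydroxylase PHD3, was at -0.57 (SE 0.22), and the glycolytic enzyme Pgk1 at -0.21 (SE 0.09), with every p53KO liver inside the Rosa26KO range for Pgk1. Without Rosa26KO replicate 6 Egln3 was at -0.34, and the median of the list was -0.13. Without Rosa26KO replicate 1 the list had 2 lower genes at an unadjusted p under 0.05, beside 197 over all tested genes. The difference of list scores was -0.23 in the first run of library names, -0.0002 in the second and -0.39 in the third.

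The promoters of Egln1 and Ankrd37 are shown for the core of the hypoxia response element, ACGTG or CACGT on the other strand, a motif that was chosen after the values were seen. The windows, again from RefSeq on GRCm38.p6, lie at chr8:124949205-124949504 and chr8:45999801-46000100, both on the minus strand, and capitals mark 1 match in the first and 2 in the second.
Egln1: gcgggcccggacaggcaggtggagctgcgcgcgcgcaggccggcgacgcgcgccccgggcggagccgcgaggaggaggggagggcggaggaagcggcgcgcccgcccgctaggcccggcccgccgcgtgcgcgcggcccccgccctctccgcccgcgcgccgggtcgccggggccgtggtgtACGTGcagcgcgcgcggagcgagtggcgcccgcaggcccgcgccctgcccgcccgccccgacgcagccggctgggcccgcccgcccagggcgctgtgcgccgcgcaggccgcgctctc
Ankrd37: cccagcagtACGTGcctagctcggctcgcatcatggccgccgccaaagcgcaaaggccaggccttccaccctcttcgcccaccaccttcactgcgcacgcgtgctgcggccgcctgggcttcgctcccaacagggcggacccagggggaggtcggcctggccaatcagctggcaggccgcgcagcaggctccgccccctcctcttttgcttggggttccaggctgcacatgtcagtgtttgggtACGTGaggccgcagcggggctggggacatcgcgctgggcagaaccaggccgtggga
Of the 21 hypoxia genes with a window, 16 (76.2%) held the core, against 3070 (28.3%) of 10845 tested genes and 6447 (19.6%) of all 32851 windows. Many of the listed genes are known as hypoxia genes because of such sites, and the share says nothing of their use in these livers.

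Markers of sinusoidal endothelial cells and of stellate cells leaned lower in p53KO. In bulk tissue, fewer cells of a type and less RNA per cell cannot be told apart. Of 32 endothelial markers, 30 lay below 0 with a median log2 fold change of -0.36. At an unadjusted p under 0.05, 7 were lower, against 1.88% of all genes. Stab2, a scavenger receptor for hyaluronan (chromosome 10, 86841198 to 87008025), ran from 53.4 to 153 CPM in Rosa26KO with a median of 60.5 and from 33.3 to 70.4 CPM in p53KO with a median of 42.0. The fitted log2 fold change was -0.76 (SE 0.24, unadjusted edgeR p of 0.00474), with 5 of 7 p53KO livers below the Rosa26KO range. The angiopoietin receptor Tek was at -0.67 (SE 0.23), the VEGF receptor Flt1 at -0.91 (SE 0.33) and the endothelial phosphatase Ptprb at -0.45 (SE 0.18). Kank3, which is known as an endothelial gene but was not on the list, was at -0.56 (SE 0.15).

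Of 26 stellate cell markers, 25 lay below 0 with a median of -0.37. At an unadjusted p under 0.05, 7 were lower, against 1.88% of all genes. Colec10 (chromosome 15, 54410774 to 54466358) ran from 24.4 to 38.0 CPM in Rosa26KO with a median of 28.0 and from 6.23 to 23.5 CPM in p53KO with a median of 16.1. It was the 1 listed marker whose groups did not overlap, with a log2 fold change of -0.85 (SE 0.22, unadjusted edgeR p of 0.000774). The matrix protein Reln was at -0.70 (SE 0.24), the peptide hormone receptor Vipr1 at -0.52 (SE 0.17), the lectin Colec11 at -0.56 (SE 0.20) and the secreted protein Ecm1 at -0.51 (SE 0.18). For Reln, Vipr1 and Colec11, 6 of 7 p53KO livers lay below the Rosa26KO range.

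The difference of endothelial scores was -0.09 in the first run of library names, -0.30 in the second and -0.64 in the third. That of stellate scores was 0.05, -0.26 and -0.88 in the same runs. Replicate 7 of HFD_p53KO had the lowest scores of all 13 livers for both cell types, at -1.08 for endothelial and -1.23 for stellate markers. Without it the medians were -0.26 and -0.22, with 28 of 32 and 21 of 26 markers still below 0 and 5 and 7 lower at an unadjusted p under 0.05, against 1.85% of all genes. Without Rosa26KO replicate 1 the endothelial count was 3, beside 197 over all tested genes. Without p53KO replicate 2 it was 15, beside 321 over all tested genes. Without Rosa26KO replicate 6 and p53KO replicate 7 together, the endothelial and stellate medians were -0.17 and -0.20. In that setting 2 endothelial and 6 stellate markers were lower at an unadjusted p under 0.05, against 1.07% of all genes. The summed level of the 32 endothelial markers ran from 551.5 to 1506 CPM in p53KO and from 1220 to 1722 CPM in Rosa26KO, and that of the 26 stellate markers from 693.6 to 1323 CPM and from 1259 to 1545 CPM. No listed marker of either type was at 0 in all 13 livers, and the part of these cells in other results was not tested. Colec10 was at -0.71 without replicate 7. Of 32 genes of the extracellular matrix, 22 lay below 0 with a median of -0.09, which was 0.06 without p53KO replicate 7 and -0.27 with 30 below 0 without p53KO replicate 2. Kupffer cell markers had a median of -0.27, with 16 of 18 below 0, and without p53KO replicate 7 it was -0.16 with no member at an unadjusted p under 0.05. Without both that library and Rosa26KO replicate 6 the Kupffer median was -0.07. Clec4f, a lectin that defines mouse Kupffer cells, ran from 116.7 to 236.9 CPM in Rosa26KO with a median of 143.9 and from 62.0 to 121.5 CPM in p53KO with a median of 76.0. Of the p53KO livers, 6 of 7 lay below the Rosa26KO range for Clec4f, and the log2 fold change was -0.94 (SE 0.42, unadjusted edgeR p of 0.0335). The complement receptor Vsig4 was at -0.75 (SE 0.48). Markers of hepatocytes had a median of -0.08 with 16 of 19 below 0, and Alb itself was at -0.57 (SE 0.25). Without Rosa26KO replicate 6 the hepatocyte median was -0.04 with 11 below 0. Without p53KO replicate 7 it was -0.17 with 16 below 0. In neither setting was a hepatocyte marker at an unadjusted p under 0.05.

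**Figure D2:**
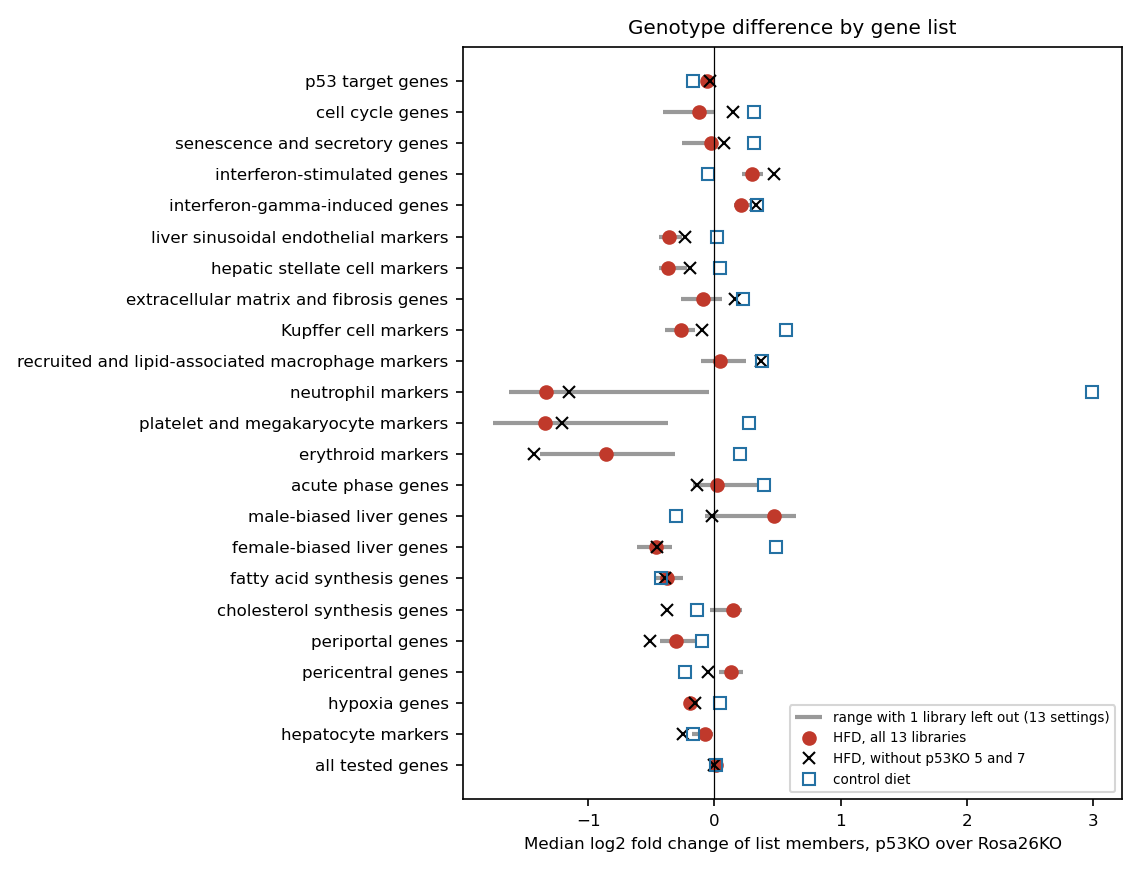
Median log2 fold change, p53KO over Rosa26KO, of the tested members of 22 gene lists and of all tested genes, on HFD with all 13 libraries (red), on HFD without p53KO replicates 5 and 7 (crosses) and on control diet (squares). Grey lines span the medians with each of the 13 HFD libraries left out in turn, and reach nearly to 0 for neutrophil markers.

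Platelet and neutrophil genes had the most negative medians of the 41 lists, and the medians rested on HFD_Rosa26KO replicate 6. Of 15 tested platelet and megakaryocyte genes, all lay below 0 with a median log2 fold change of -1.34. At an unadjusted p under 0.05, 12 were lower, against 1.88% of all genes. Ppbp (chromosome 5, 90768518 to 90770063) was at 130.2 CPM in Rosa26KO replicate 6, at 10.4 CPM in replicate 1 and between 1.19 and 2.42 CPM in the other 4, against 0.535 to 3.17 CPM in p53KO. Its log2 fold change was -3.93 (SE 0.91, unadjusted edgeR p of 0.000244), with a DESeq2 adjusted p of 0.0249. Without Rosa26KO replicate 6 it was -1.09, with an unadjusted edgeR p of 0.0541. The von Willebrand receptor subunit Gp1ba, at 18.4 CPM in that library and at most 1.45 CPM in any other, went from -3.07 to -0.53. Tubb1, the tubulin of platelets, and Itga2b, an integrin of the fibrinogen receptor, were at -3.02 and -1.80 with all libraries and at -0.99 and -0.33 without it. The median of the list without it was -0.37, with no member lower at an unadjusted p under 0.05, against 1% of all genes. The summed level of the list was 569.4 CPM in that liver, the highest of the 13, and ran from 37.6 to 88.0 CPM in p53KO.

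Neutrophil genes gave a like picture. Of 18 tested, 17 lay below 0 with a median of -1.34. At an unadjusted p under 0.05, 5 were lower, against 1.88% of all genes. The granule protein Ngp was at 109.7 CPM in Rosa26KO replicate 6, at 0.834 to 4.93 CPM in the other Rosa26KO livers and at 0 to 2.67 CPM in p53KO, and Mpo, myeloperoxidase, was at 49.8 CPM in that library and at most 1.81 CPM in any other of the 13. Without replicate 6 the median of the list was -0.05, with 8 members above and 10 below 0 and none at an unadjusted p under 0.05. Erythroid genes had a median of -0.86, with 12 of 14 below 0. At an unadjusted p under 0.05, 5 were lower, against 1.88% of all genes. The anion exchanger Slc4a1 was at 30.5 CPM in Rosa26KO replicate 6, 17.2 CPM in replicate 1 and 5.68 CPM in p53KO replicate 5, and at most 5.39 CPM in the other 10 livers. The adult beta globin Hbb-bs, which has close paralogs, was highest in the same 3 livers, at 1940 CPM in Rosa26KO replicate 1, 1349 CPM in replicate 6 and 884 CPM in p53KO replicate 5. Leaving out p53KO replicate 5 gave an erythroid median of -1.38 with 8 lower at an unadjusted p under 0.05, beside 284 over all tested genes. Without Rosa26KO replicate 1 the erythroid median was -0.31 with 2 lower, beside 197 over all tested genes. Without Rosa26KO replicate 6 it was -0.68 with 1 lower, against 1% of all genes. Sptb, erythroid spectrin, had the smallest p of all genes on HFD at -2.12 (SE 0.49, unadjusted edgeR p of 0.000229), and -1.11 without replicate 6. Its exons overlap Plekhg3 on the other strand.

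The remaining genes of smallest p were partly of the same kind. Of the 10 that were lower, Sptb, Ppbp, Gp1ba, Tubb1, the thrombin receptor F2rl2 and the multimerin Mmrn1 belong to blood cells or platelets, and Egln1, Colec10, Kank3 and Ccdc148 do not. F2rl2 and Mmrn1 were at -3.11 and -2.52, and at -0.23 and -0.70 without Rosa26KO replicate 6. The 10 that were higher were Zfp691, Cyp2d12, Zfp746, Saa3, Bach1, Nmt1, Lama3, Zfp64, Cyp2d9 and Zfp777, with 4 zinc finger proteins among them. Zfp746, known as a repressor of the coactivator PGC-1alpha, was at 0.31 (SE 0.08), and Nmt1, which attaches myristate to proteins, at 0.24 (SE 0.07). Bach1, a heme-sensitive repressor of the oxidative stress programme driven by NRF2 (chromosome 16, 87698945 to 87733346), ran from 26.6 to 33.5 CPM in Rosa26KO with a median of 31.4 and from 33.4 to 42.0 CPM in p53KO with a median of 39.4. Of the p53KO livers, 6 of 7 lay above the Rosa26KO range, and the log2 fold change was 0.30 (SE 0.09, unadjusted edgeR p of 0.00217). The list of 30 NRF2 and oxidative stress genes, which holds Bach1, had a median of 0.03. Its other member at an unadjusted p under 0.05 was Gsr, glutathione reductase, at 0.19 (SE 0.08).

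**Figure D3:**
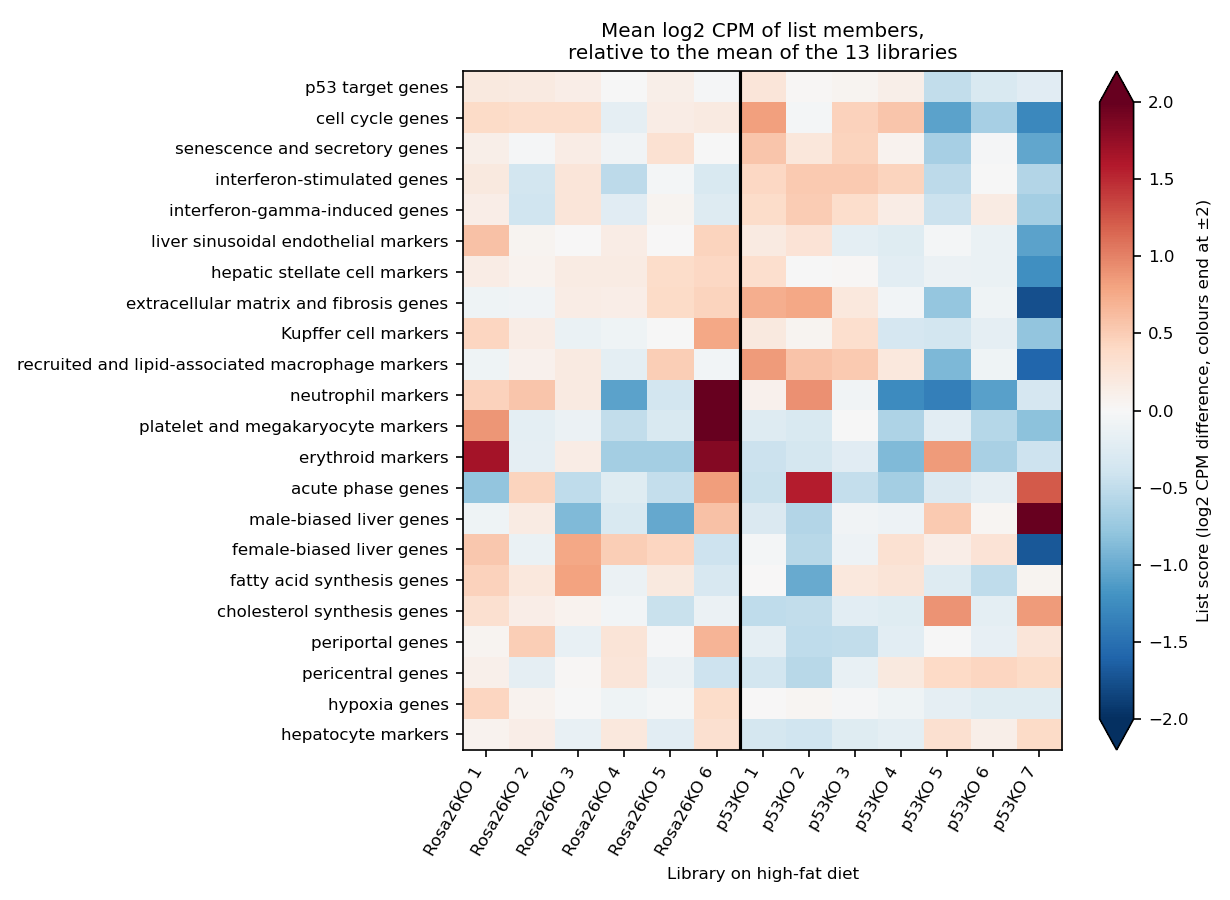
Mean log2 CPM of the members of 22 gene lists in each of the 13 HFD livers, relative to the mean of the 13, with colours that end at ±2. HFD_Rosa26KO replicate 6 stands out in neutrophil, platelet and erythroid genes, and HFD_p53KO replicate 7 in endothelial, stellate, matrix and sex-biased genes.

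Male-biased liver genes, which depend on the pulsed pattern of growth hormone in males, lay higher in p53KO, and female-biased genes lower. Of 26 tested male-biased genes, 23 lay above 0 with a median log2 fold change of 0.47. At an unadjusted p under 0.05, 7 were higher, against 1.73% of all genes. The list divides by what 1 library does. Mup7, a major urinary protein that carries pheromones, was at 5604 CPM in p53KO replicate 7, between 17.8 and 180.8 CPM in the other 6 p53KO livers and between 5.19 and 223.7 CPM in Rosa26KO. Its log2 fold change of 3.70 (SE 1.40) became -0.11 without that library, and that of Mup12 went from 2.84 to -0.28. The Mup genes are near-identical copies, so their counts may be shared.

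The differences of Cyp2d9, Cyp4a12b and Cyp4a12a, cytochrome P450 genes of the list picked by small p, did not rest on replicate 7. The lowest member of the list was at -0.77. Cyp2d9, a male-specific steroid hydroxylase (chromosome 15, 82433437 to 82456845), ran from 272.3 to 527.7 CPM in Rosa26KO with a median of 324.2 and from 425.8 to 1060 CPM in p53KO with a median of 654.9. The fitted log2 fold change was 0.94 (SE 0.29, unadjusted edgeR p of 0.00365), and 0.80 without replicate 7. Cyp4a12b, a fatty acid hydroxylase, ran from 8.79 to 41.0 CPM in Rosa26KO and from 39.3 to 82.2 CPM in p53KO, with 5 of 7 p53KO livers above the Rosa26KO range. Its log2 fold change was 1.45 (SE 0.52) and that of its close copy Cyp4a12a 1.47 (SE 0.59), and without replicate 7 they were 1.51 and 1.55. Nat8f5 and Gstp1, also on the list, were at 0.93 (SE 0.43) and 0.55 (SE 0.27). For Gstp1, Rosa26KO replicate 6 lay far below its group, at 8.25 log2 CPM. Cyp2d12, a close paralog of Cyp2d9 on another list, was at 1.04 (SE 0.25, unadjusted edgeR p of 0.00037). The median of the male-biased list without replicate 7 was -0.07, with 12 members above and 14 below 0, with 4 higher at an unadjusted p under 0.05, against 1.66% of all genes. Without Rosa26KO replicate 6 and p53KO replicate 7 together, the median was 0.18 with 17 of 26 above 0 and 3 higher at that p, against 1.03% of all genes. With all libraries, the difference of male-biased scores was -0.47 in the first run of library names, 0.51 in the second and 1.09 in the third. Of 27 female-biased genes, 23 lay below 0 with a median of -0.47, and without replicate 7 the median was -0.34. On control diet the medians of the male-biased and female-biased lists were -0.31 and 0.49.

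Of 24 genes of fatty acid synthesis, 20 lay below 0 with a median log2 fold change of -0.37, and on control diet 23 lay below 0 with a median of -0.42. At an unadjusted p under 0.05, 2 were lower on HFD, against 1.88% of all genes. Without Rosa26KO replicate 1 none was, beside 197 over all tested genes. The median on HFD was -0.28 without p53KO replicate 2 and -0.25 without Rosa26KO replicate 3. The difference of list scores was -0.84 in the first run of library names, -0.10 in the second and -0.17 in the third. Pnpla3, a lipase of lipid droplets that is induced with lipogenesis (chromosome 15, 84167837 to 84187236), ran from 3.58 to 59.1 CPM in Rosa26KO with a median of 14.4 and from 3.13 to 12.5 CPM in p53KO with a median of 9.61. The fitted log2 fold change was -1.51 (SE 0.59, unadjusted edgeR p of 0.0168), with 6 of 7 p53KO livers inside the Rosa26KO range. The rate-setting enzyme Acaca was at -0.38 (SE 0.20), fatty acid synthase Fasn at -0.51 (SE 0.39) and the desaturase Scd1 at -0.50 (SE 0.44). Genes of cholesterol synthesis had a median of 0.15 with 21 of 25 above 0. Their scores were 0.90 and 0.85 in p53KO replicates 5 and 7 and -0.50 to -0.19 in the other 5 p53KO livers, and the median was -0.04 without replicate 5 and -0.02 without replicate 7. Without those 2 libraries the median was -0.37 with all 25 below 0 and 6 lower at an unadjusted p under 0.05, against 2.9% of all genes.

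Genes of hepatocytes near the portal vein had a median of -0.30, with 25 of 27 below 0. At an unadjusted p under 0.05, 2 were lower, against 1.88% of all genes. Without p53KO replicate 7 the count was 9, against 1.85% of all genes. Without Rosa26KO replicate 6 the median was -0.15 with 1 lower, against 1% of all genes. Hsd17b6, a steroid dehydrogenase, was at -1.24 (SE 0.47), with 4 of 7 p53KO livers below the Rosa26KO range, and Cyp17a1, a steroid hydroxylase that is also on the female-biased list, at -1.96 (SE 0.75), with 5 of 7 below. The classical periportal gene Cyp2f2 was at 0.22 (SE 0.20). Genes of hepatocytes near the central vein had a median of 0.13, with 23 of 28 above 0. Without p53KO replicate 7 this median was 0.04 with 15 above 0, and without replicates 5 and 7 it was -0.05 with 13 above 0. Their member of smallest p, the amino acid carrier Slc1a4, pointed the other way at -1.57 (SE 0.49, unadjusted edgeR p of 0.00411), and at -1.04 without Rosa26KO replicate 1. Igfbp1, a growth factor binding protein repressed by insulin, ran from 31.4 to 217.3 CPM in Rosa26KO with a median of 100.4 and from 16.8 to 58.0 CPM in p53KO with a median of 45.9. Its log2 fold change was -1.40 (SE 0.54, unadjusted edgeR p of 0.0165).

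**Figure D4:**
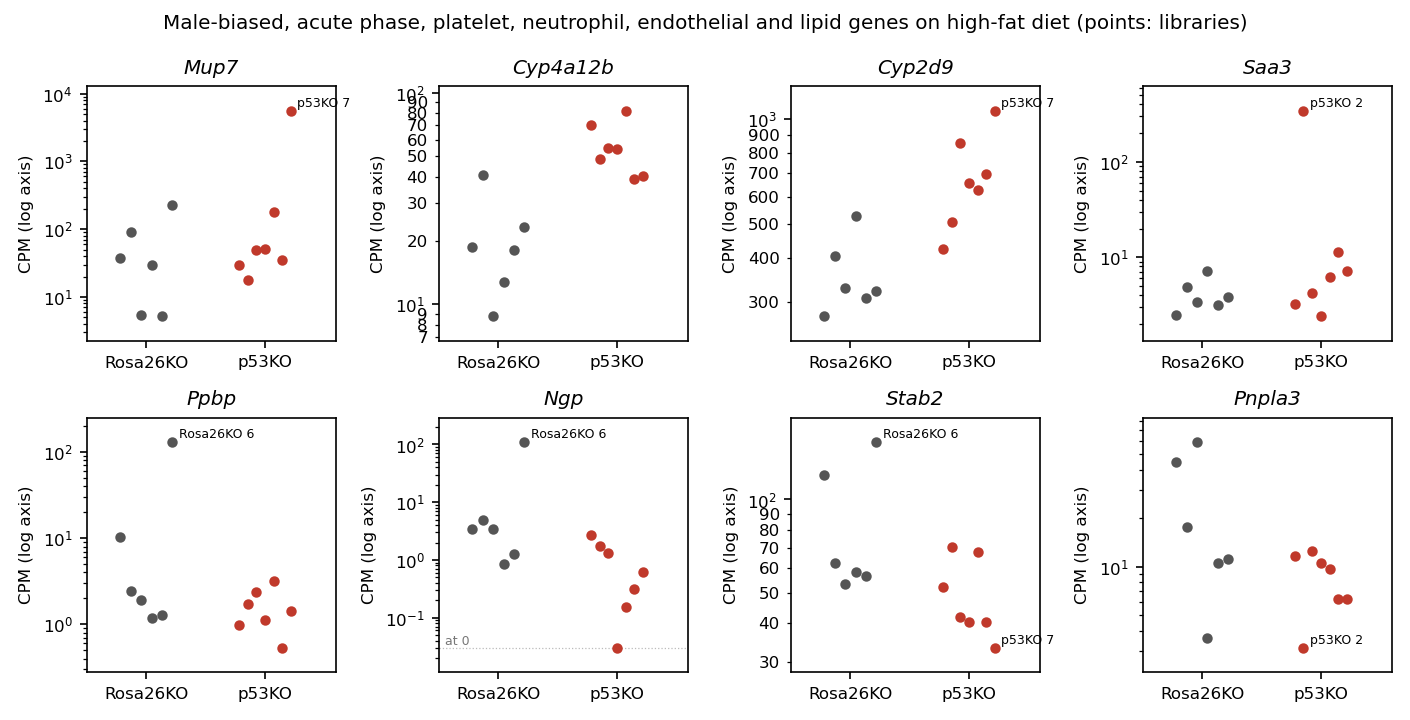
Levels in CPM, on a log axis, of 8 genes in the 13 HFD livers, with grey points for HFD_Rosa26KO and red points for HFD_p53KO. For Mup7, Saa3, Ppbp and Ngp 1 library lies far above all others, whereas Cyp2d9 and Cyp4a12b were higher in 5 of 7 p53KO livers than in any Rosa26KO liver; a value of 0 is drawn on the dotted line.

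The acute phase gene Saa3, a serum amyloid (chromosome 7, 46711998 to 46715700), had the largest positive log2 fold change of all tested genes, at 3.72 (SE 1.07, unadjusted edgeR p of 0.00192). It was at 344.6 CPM in p53KO replicate 2, between 2.40 and 11.3 CPM in the other p53KO livers and between 2.48 and 7.15 CPM in Rosa26KO. Without that library the log2 fold change was 0.48. Saa1, which has a close copy, reached 4185 CPM in the same liver, and Lcn2, an iron-trapping protein of inflammation, 3885 CPM. Over the 29 acute phase genes the median was 0.02, with 17 above 0. It was 0.34 with 28 above 0 without Rosa26KO replicate 6, and -0.17 with 22 below 0 without p53KO replicate 2. Cell cycle genes had a median of -0.13 with 44 of 48 below 0, and none reached an unadjusted p under 0.05. Their scores were -1.08, -0.67 and -1.29 in p53KO replicates 5, 6 and 7 and between -0.19 and 0.82 in the other 10 livers, and the median was 0.00 without replicate 7 and -0.40 without replicate 1. Genes of DNA repair and effectors of apoptosis, both close to p53 in function, had medians of 0.03 and 0.04 in 25 genes each.

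The spread between livers was wider in p53KO. The common biological coefficient of variation, edgeR's estimate of the spread between libraries of a group, was 0.275 in HFD_p53KO and 0.212 in HFD_Rosa26KO. Of the tested genes, 69.5% had a larger SD of log2 CPM in p53KO. Without p53KO replicates 5 and 7 the coefficient was 0.191, and 53.9% of genes had the larger SD in p53KO. Without Rosa26KO replicate 6 the coefficient of the Rosa26KO group was 0.169. With that library and p53KO replicates 5 and 7 all left out, 61.5% of genes had the larger SD in p53KO. In a principal component analysis of the 1000 most variable genes, the first component held 41.1% and the second 23.4% of the variance. On the first, p53KO replicates 7 and 5 lay at 54.2 and 24.4 and the other 5 p53KO livers between -21.5 and 1.9, and the group means were 2.14 ± 27.8 (SD, n = 7) for p53KO and -2.49 ± 11.4 (SD, n = 6) for Rosa26KO. On the second, Rosa26KO replicate 6 lay at 42.4. Neither component separated the genotypes.

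**Figure D5:**
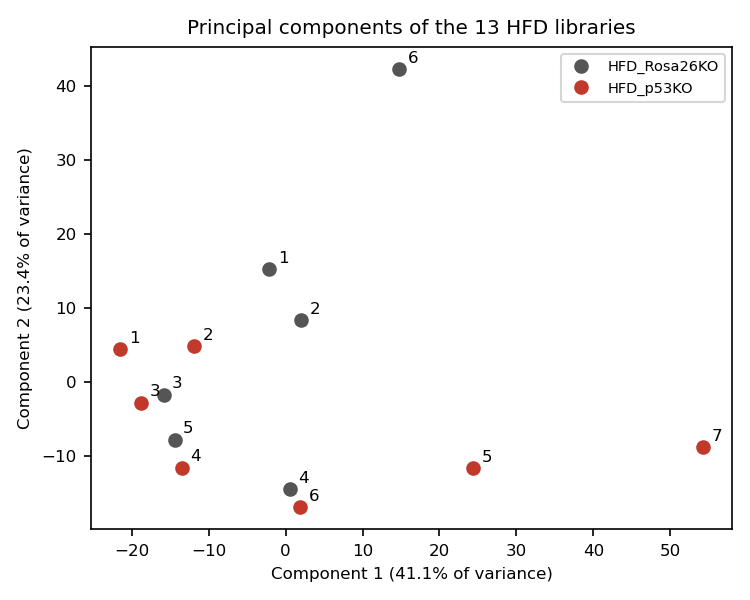
First and second principal components of the 13 HFD livers, from log2 CPM of the 1000 most variable genes, with replicate numbers beside the points. p53KO replicates 7 and 5 lie at the high end of the first component and Rosa26KO replicate 6 at the high end of the second, and the other livers of both genotypes mix.

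The difference on HFD had little in common with the same difference on control diet, which used 12 other libraries. Of the 509 genes at an unadjusted p under 0.05 on HFD and 1408 (9.96%) on control diet, 55 were in both, or 10.8% of the first and 3.91% of the second. The 10.8% lies near the 9.96% of all genes at that p on control diet. Of all 509 genes, 174 had the same sign on control diet. Of the 55, 12 had the same direction on both diets and 43 the opposite one. Trp53 was among the 12, with log2 fold changes of -0.51 on HFD and -0.61 on control diet. The others, listed after their values were seen, were Zfp691 at 0.33 and 0.22, Bach1 at 0.30 and 0.31, the chromatin remodeller Ino80 at 0.17 and 0.21, Rad18, a ubiquitin ligase of DNA damage tolerance, at 0.53 and 0.52, the corepressor subunit Tbl1xr1 at 0.23 and 0.22, and the imprinted noncoding RNA Rian at 1.13 and 1.05. Lower on both diets were the cytokine Mif at -0.29 and -0.34, the mannose-binding lectin Mbl2 at -0.48 and -0.53, the AMPK subunit Prkag1 at -0.15 and -0.16, Atp8b5 at -0.90 and -1.65, and the RNase P RNA Rpph1 at -1.74 and -3.24. Rian contains small RNA genes that share its exons, and Rpph1 is not polyadenylated, so their counts are uncertain.

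Across the 14133 genes, which are not independent replicates, the log2 fold changes of the diets had a Pearson correlation of -0.24. It was -0.10 without HFD_Rosa26KO replicate 6 and 0.01 without HFD_p53KO replicates 5 and 7. The interaction test of edgeR called no gene at an adjusted p under 0.05 and had 1221 (8.64%) at an unadjusted p under 0.05. DESeq2 called 5 (0.0355%), which were Rogdi, Zfp64 and the neutrophil genes Ltf, Ngp and Mpo. Zfp64, a zinc finger protein, was at 0.30 on HFD and -0.34 on control diet, with an unadjusted edgeR p of 8.1e-05 for the interaction. Ngp and Mpo were at -4.35 and -3.89 on HFD and at 4.91 and 5.13 on control diet. Beside the 109.7 CPM of Ngp in HFD_Rosa26KO replicate 6, Control_p53KO replicate 1 held 137.6 CPM and replicate 3 14.7 CPM, so that 3 libraries carried the highest values on both diets.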

How the data were processed

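The authors deposited 1 table of raw read counts per gene symbol for 25 liver libraries, per the file headers. The submitters' processing notes name STAR, HOMER and GRCm38/mm10 without versions. No source used here gives the annotation, the strand setting or the treatment of multi-mapping reads, so genes with exon overlaps (among them Cdkn1a, Bax, Tap1, Usp10, Nmt1, Kank3, Vezt, Zfp777, Fam214b, Stab2, Reln, Ifi35, Pnpla3, Mpo, Cyp2d9 and Cyp2d12) are uncertain. Of 24537 symbols, 23828 were matched in GENCODE M21, which gave positions and exon overlaps. filterByExpr (minimum count 10, minimum total 15) in edgeR 4.0.16 (R 4.3.3) left 14133 genes. Libraries were scaled by TMM, and edgeR's quasi-likelihood test with robust dispersion was fitted to all 25 libraries with 1 mean per group. P-values were two-sided and adjusted by Benjamini-Hochberg over all tested genes, with a threshold of 0.05. The interaction came from the same fit. Trp53 was also tested by exact permutation. Alternatives used DESeq2 1.42.0, limma 3.58.1, other scaling and filters, a replicate block, a term for runs of library names, and left-out libraries. The fit was tested on simulated data.

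The 41 gene lists held 1165 entries, 1158 of them in the table. The comparison and the lists were chosen with earlier results of these data known. Named were Trp53, Cdkn1a and Mdm2; the 10 genes of smallest p in each direction averaging 1 CPM or more; the 5 of largest difference in each direction with an unadjusted p under 0.05; up to 10 without overlap; genes called by any tool on HFD; and up to 5 of smallest p per list. Genes with clone-like names were passed over. Isg15, Ifit3, Bst2, Oasl2, Fasn, Scd1, Cyp2f2, Nat8f5, Gstp1, Rogdi and the genes shared by both diets fall outside this rule and were chosen after their values were seen. Library totals of HFD samples, 16324283 to 21501281 counts, limit precision for genes near 1 CPM. Log2 CPM used a prior count of 2. A gene that the naming rule selects is not reported here.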

Additional observations from a re-analysis of the deposited data

Results flagged for a closer look

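A library was marked where its gap to the nearest of its group was a large share of the range of that group, by Dixon's criterion at the 95% level. Of 268 groups tested over gene levels and list scores, 25 held such a library, and chance gives about 1 in 20. HFD_p53KO replicate 7 was marked most often. Its log2 CPM was far below the other p53KO livers for Ppm1d at 2.08, Colec10 at 2.66, Arg2 at -1.80, Ptprb at 4.48, Kank3 at 2.14, Colec11 at 4.05, Ecm1 at 5.48 and Egln3 at 3.45, and far above them for Mup7 at 12.45. Its list scores were -1.08 for sinusoidal endothelial markers, -1.23 for stellate cell markers, -1.69 for female-biased genes and 2.05 for male-biased genes.

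HFD_Rosa26KO replicate 6 was far above its group in the platelet genes F2rl2 at 3.99, Mmrn1 at 3.23 and Itga2b at 5.33 and in the neutrophil genes Ngp at 6.78 and Mpo at 5.64 on the log2 CPM scale, and far below it for Gstp1 at 8.25. Its neutrophil score was 3.34. HFD_p53KO replicate 2 was far above its group in Saa3 at 8.43 and Lcn2 at 11.92. HFD_p53KO replicate 5 was far above in Hbb-bs at 9.79 and in the erythroid score at 0.86. HFD_Rosa26KO replicate 4 was far below in the score of oncofetal and tumour-associated genes at -0.41.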

How the results depend on the processing

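Trp53 kept its direction and stayed past the threshold of the exact permutation test in every setting, with differences of -12.4 to -9.76 CPM with 1 library left out and -10.4 CPM on raw library totals. The exact permutation p on raw library totals was 0.0111, larger than with any 1 library left out. edgeR called 0 genes on HFD under every alternative, leaving out each library included, and DESeq2 called 1, Ppbp, with an adjusted p of 0.0249. At an unadjusted p under 0.05 the count on HFD went from 509 to 1171 with limma voom and to 298 without HFD_Rosa26KO replicate 6 and HFD_p53KO replicate 7, and ranged from 316 (without HFD_Rosa26KO replicate 6) to 635 (without HFD_p53KO replicate 1) with 1 library left out. For the interaction, whose alternatives were chosen after seeing the data, DESeq2 called 5 genes against 0, and the unadjusted count of 1221 fell to 745 without HFD_Rosa26KO replicate 6 and HFD_p53KO replicate 7, with a range of 919 to 1537 with 1 library left out. Log2 fold changes that turned their sign were those of Mdm2, at 0.012 without HFD_p53KO replicates 5 and 7 and between -0.071 and 0.021 with 1 library left out, of Mup7, at -0.84 without replicates 5 and 7, -0.18 with the replicate block and -0.11 to 4.65 with 1 library left out, of Mup12, at -0.98, -0.72 and -0.28 to 3.41 in the same settings, and of Lcn2, at -0.28 with DESeq2 and -0.20 to 1.99 with 1 library left out. The cause was not tested. Replicate numbers did not pair the samples: deviations of same-numbered libraries had correlations of 0.12, -0.10, 0.41, 0.00, -0.27 and -0.27, and 1 of 6 p53KO libraries was closest to its own number. With the replicate block 548 genes had an unadjusted p under 0.05 and none passed the adjusted threshold. Genes near 1 CPM have few counts per library, and reads of paralogs or overlapping exons may be shared.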

Other observations

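The 40 cytosolic ribosomal protein genes had a median log2 fold change of -0.01, with 17 above 0, and the 40 genes of oxidative phosphorylation had -0.05, with 34 below 0. Fatty acid oxidation, with 33 genes, had a median of -0.04, and 32 genes of triglyceride synthesis and lipid droplets had -0.02, in each case with no more than 1 gene at an unadjusted p under 0.05 in edgeR. Genes of the amino acid and urea cycle pathways had a median of -0.09 with 29 of 35 below 0, and -0.36 without HFD_p53KO replicates 5 and 7, where 14 were lower at an unadjusted p under 0.05, against 2.9% of all genes. Markers of T and NK cells had a median of 0.12 on HFD and 0.99 on control diet, and class II MHC genes, which present peptides to T cells, had -0.18 and 0.82. In the interaction test of edgeR, 1 of 23 and none of 9 of these genes had an unadjusted p under 0.05, against 8.64% of all genes.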
